A study of Danio rerio with 6 samples.

Results

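Expression of 6 genes known from the embryonic skin (grhl1, grhl2a, grhl2b, grhl3, tp63 and epcam) was followed in GFP-positive cells sorted by flow cytometry from zebrafish trunks. The genes were picked because grhl3 and epcam had been seen to be high in cells sorted by an nkx2.2a reporter, and all 6 were found among the 30677 gene symbols of the count files. The embryos were wild type apart from their reporter, were 14 hours post fertilisation old and had brain and tail removed. Bacterial artificial chromosome (BAC) transgenes carrying nkx2.2a, olig2 or dbx1b regulatory sequence drove the GFP, which in the nkx2.2a line was tethered to the membrane and in the olig2 and dbx1b lines was plain GFP. Each line gave 2 RNA-seq libraries from cells described as neural progenitors. The sources used here do not say how many embryos went into a library or whether the libraries of a line came from separate pools. The p-values below therefore measure the spread between these libraries, which may be technical. Reporter line, form of GFP and sort coincide with the groups and cannot be told apart.

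The Grainyhead-like (Grhl) proteins are transcription factors of surface epithelia that switch on genes for cell junctions and barrier formation. Zebrafish carry a duplicated pair, grhl2a and grhl2b, beside grhl1 and grhl3. The p53 relative encoded by tp63 marks the basal layer of the epidermis and is needed for that layer to expand, whereas the epithelial cell adhesion molecule encoded by epcam sits on the surface of epithelial cells, among them the outer and basal layers of zebrafish skin. None of the 6 is counted among the patterning genes of the ventral neural tube.

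The libraries held 3254516 to 6933417 fragments mapped to transcripts, and 1 fragment was worth 0.141 to 0.304 CPM, the unit in which counts are scaled to a common library total. Each reporter gene was highest in its own sort: nkx2.2a stood at 495 and 364 CPM in its own sort and at 26.5 CPM or less in the others. The separation was less sharp for the other reporter genes. Transcripts of olig2 stood at 220 and 125 CPM in the olig2 sort but also at 19.3 and 70.5 CPM in nkx2.2a cells, and at 4.09 CPM or less in dbx1b cells. Transcripts of dbx1b stood at 183 and 216 CPM in the dbx1b sort, at 11.5 and 49.3 CPM in nkx2.2a cells and at 17.0 and 9.24 CPM in olig2 cells. Markers of neural progenitors were abundant in every library. Their 9 listed genes found summed to 2418 to 3115 CPM, and cdh2, the N-cadherin gene, lay between 745 and 1219 CPM. All CPM values are scaled by the trimmed mean of M values (TMM), and library 1 is always given before library 2.

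Both nkx2.2a libraries exceeded all others for grhl3, by a wide margin, and for epcam, while the tp63 values of nkx2.2a and olig2 cells overlapped. Among nkx2.2a cells tp63 stood at 129 and 158 CPM, among olig2 cells at 77.0 and 135 CPM, and among dbx1b cells at 14.9 and 65.3 CPM. The nkx2.2a and olig2 ranges overlapped, and dbx1b library 1 was by far the lowest. The group means were 144 ± 20.1, 106 ± 40.9 and 40.1 ± 35.6 CPM (SD, n = 2 each). Because these are bulk samples, more cells of a type and more RNA per cell cannot be told apart here or in any later result.

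Among nkx2.2a cells epcam stood at 187 and 187 CPM, among olig2 cells at 68.8 and 92.0 CPM, and among dbx1b cells at 25.8 and 15.8 CPM. The libraries therefore fell into 3 steps that did not overlap, with nkx2.2a cells on top and dbx1b cells at the bottom. The nkx2.2a mean of 187 ± 0.376 CPM was 2.33 times the olig2 mean of 80.4 ± 16.4 CPM, and lay 3.17 on the log2 scale above the dbx1b mean of 20.8 ± 7.05 CPM (SD, n = 2 each). The values of grhl3 had another shape. It stood at 114 and 134 CPM among nkx2.2a cells, at 3.35 and 7.11 CPM among olig2 cells and at 3.78 and 7.89 CPM among dbx1b cells. The olig2 and dbx1b ranges of grhl3 lay on top of each other, and the lower nkx2.2a library was 14.4 times the highest of the other libraries. The nkx2.2a mean of grhl3 was 23.6 times the olig2 mean and 21.2 times the dbx1b mean. Without olig2 library 1 the log2 ratio to olig2 cells went from 4.56 to 4.12, and without olig2 library 2 to 5.21. Without dbx1b library 1 the log2 ratio to dbx1b cells went from 4.40 to 3.97, and without dbx1b library 2 to 5.03. These values led to the choice of the genes, so they are a description and carry no test.

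**Figure D1:**
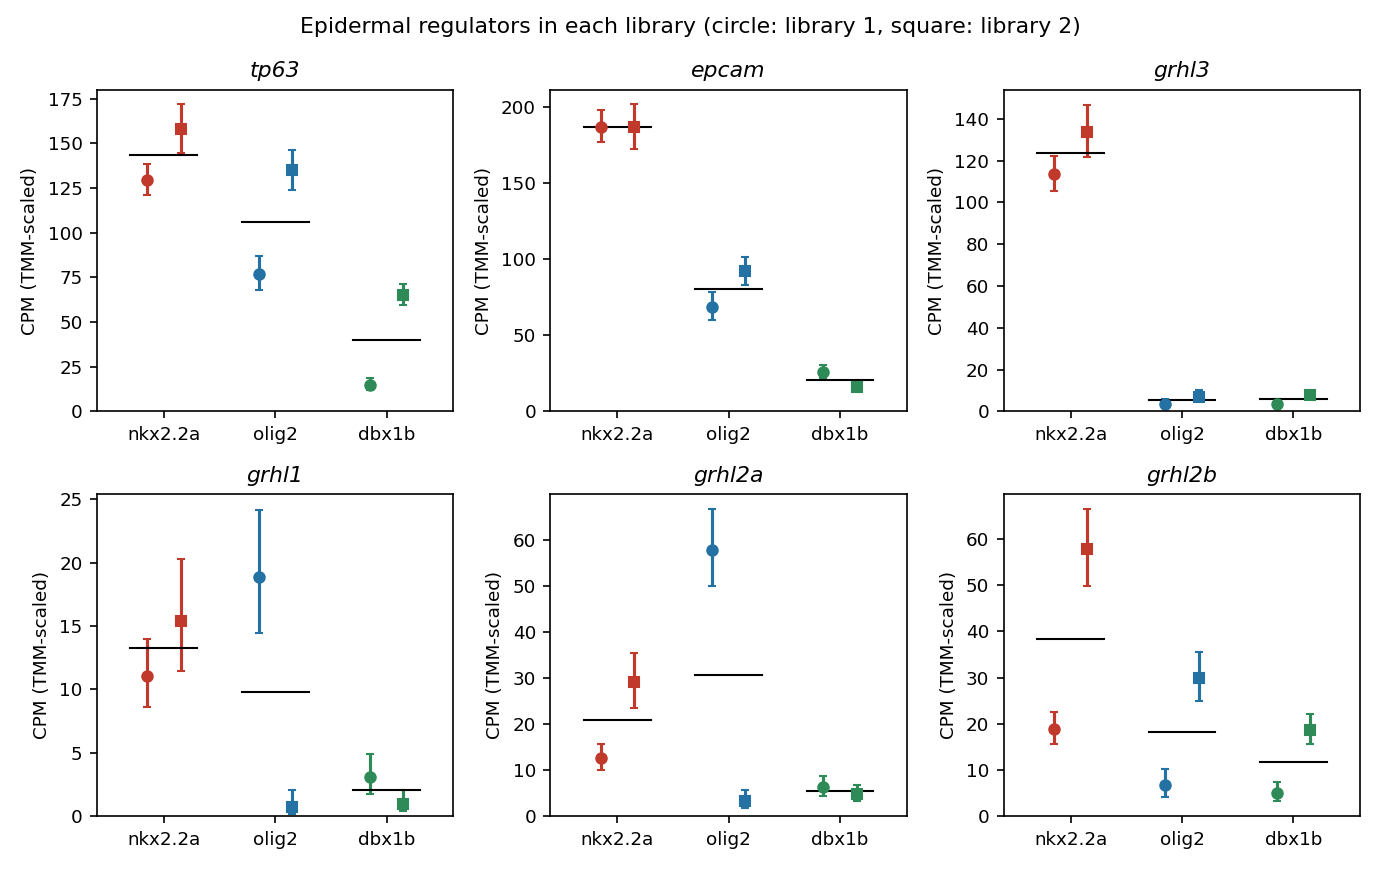
TMM-scaled CPM of tp63, epcam, grhl3, grhl1, grhl2a and grhl2b (vertical axes, each from 0) in the nkx2.2a, olig2 and dbx1b libraries. Circles are library 1 and squares library 2, error bars are exact 95% Poisson intervals that cover counting error only, and the black line is the group mean. The 2 nkx2.2a libraries of grhl3, at 114 and 134 CPM, stand apart from the other 4 libraries, while grhl1 and grhl2a are highest in olig2 library 1.

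Among the other grhl genes, grhl1 and grhl2a were split between the olig2 libraries, and grhl2b was uneven in every sort. Transcripts of grhl1, whose protein acts in epidermal differentiation in the mouse, stood at 11.1 and 15.4 CPM among nkx2.2a cells, at 18.9 and 0.711 CPM among olig2 cells and at 3.06 and 0.987 CPM among dbx1b cells. The olig2 libraries thus bracketed all others: their values came from 62 and 3 fragments, with exact Poisson intervals of 14.5 to 24.2 CPM and 0.147 to 2.08 CPM. Transcripts of grhl2a stood at 12.6 and 29.0 CPM, at 57.8 and 3.32 CPM and at 6.30 and 4.79 CPM in the same order. Here too olig2 library 1 was the highest and olig2 library 2 the lowest of all libraries, 17.4-fold apart. Transcripts of grhl2b, which is needed for the inner ear epithelium in zebrafish, stood at 18.8 and 57.8 CPM, at 6.69 and 29.9 CPM and at 5.04 and 18.6 CPM in the same order. For grhl2b, as for grhl3 and tp63, library 2 was above library 1 in each sort on the TMM-scaled CPM. In nkx2.2a cells this order depended on the scale for grhl3 and tp63. Their FPKM values, described below, were 42.2 and 42.1 for grhl3 and 61.2 and 58.5 for tp63. The grhl2b ranges of the 3 sorts overlapped except for nkx2.2a over dbx1b cells, where the gap was between 18.8 and 18.6 CPM.

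The split of the olig2 libraries set what grhl1 and grhl2a showed against nkx2.2a cells. The log2 ratio of the nkx2.2a mean to the olig2 mean was 0.44 for grhl1 and -0.55 for grhl2a. Without olig2 library 1 these became 4.22 and 2.65, and without olig2 library 2 they became -0.51 and -1.47. The ratio of grhl2a also moved to -0.07 without nkx2.2a library 1 and to -1.27 without nkx2.2a library 2. For grhl2b the log2 ratio of 1.07 to olig2 cells became 0.04 without nkx2.2a library 2, 1.66 without nkx2.2a library 1, 0.36 without olig2 library 1 and 2.52 without olig2 library 2. Set against all genes, a gap between the olig2 libraries as large as that of grhl2a was seen in 3.94% of 12507 tested symbols with a mean of at least 5 CPM, and one as large as that of grhl1 in 4.85% (log2 of CPM plus 1). The gap of tp63 between the dbx1b libraries, 4.37-fold, was reached by 4.73% of these symbols, and that of epcam between the nkx2.2a libraries was matched or exceeded by 99.6% of them.

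Against dbx1b cells, all 6 genes had both nkx2.2a libraries above both dbx1b libraries, as had 19.1% of all tested symbols. Against olig2 cells the libraries did not overlap for 2 of the 6, grhl3 and epcam, and 20% of all tested symbols lay above both olig2 libraries. Both nkx2.2a libraries exceeded all 4 others for the same 2 genes and for 8.16% of all tested symbols. Since the genes were chosen on these contrasts, the counts are given without a reading.

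Per length of transcript, the deposited FPKM values (read counts divided by transcript length and mapped reads, summed over the transcripts of a gene) allow the genes to be ranked against each other. In the nkx2.2a libraries epcam had the highest level, 135 and 114 FPKM, followed by tp63 at 61.2 and 58.5 FPKM and grhl3 at 42.2 and 42.1 FPKM. The same order of epcam over tp63 held in the olig2 libraries, at 46.0 and 61.6 FPKM for epcam and 33.6 and 58.2 FPKM for tp63. In dbx1b cells the order changed with the library: epcam was above tp63 in library 1 (16.0 and 5.82 FPKM) and below it in library 2 (10.7 and 29.0 FPKM). The level of grhl3 was 68.9 and 72.0 FPKM for every 100 FPKM of tp63 among nkx2.2a cells, 3.45 and 4.23 among olig2 cells and 20.8 and 9.51 among dbx1b cells. The ratio was thus lowest in olig2 cells, where tp63 was abundant and grhl3 was not, a description that rests on the values that chose grhl3.

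The makeup of the grhl family also differed from library to library. The 4 genes summed to 60.9 and 83.6 FPKM in nkx2.2a cells, to 33.9 and 16.2 FPKM in olig2 cells and to 6.96 and 12.8 FPKM in dbx1b cells. In nkx2.2a cells grhl3 was the largest component, with 69.3% and 50.4% of the family. Since grhl3 was picked for its high values in nkx2.2a cells, these sums and shares are a description. For grhl1, grhl2a and grhl2b the FPKM ranges of nkx2.2a and olig2 cells overlapped, while nkx2.2a cells lay above dbx1b cells. In olig2 library 1 grhl2a held 65.2%, and in olig2 library 2 grhl2b held 74.9%. In dbx1b library 1 grhl2a and grhl2b held 33.7% and 31.9%, and in dbx1b library 2 grhl2b held 60.8%. The olig2 libraries thus had different leading grhl genes, although they were prepared from the same reporter line.

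**Figure D2:**
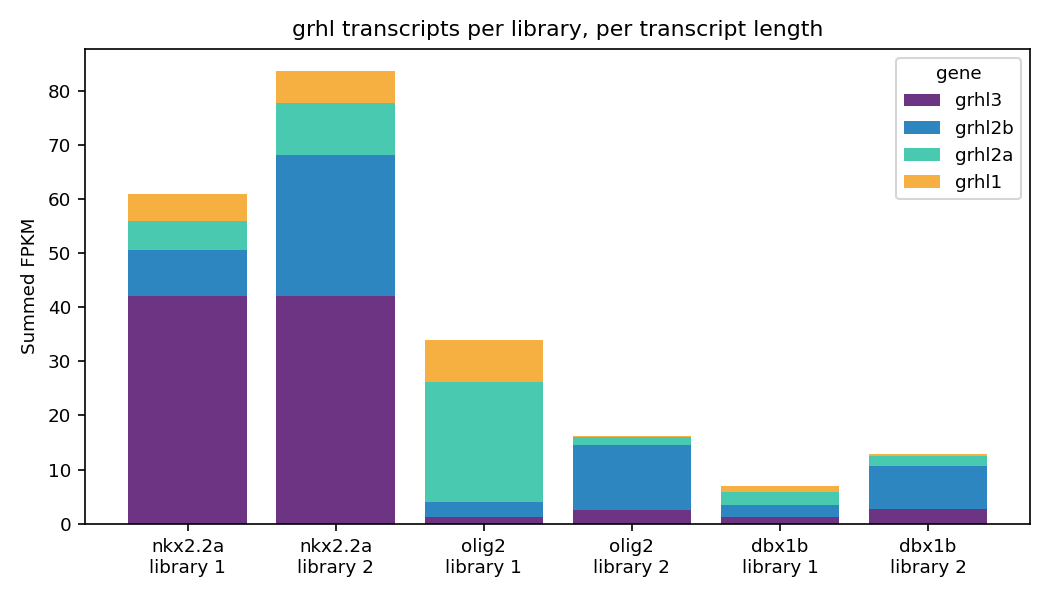
Deposited FPKM of grhl3, grhl2b, grhl2a and grhl1, summed over the transcripts of each gene and stacked for each of the 6 libraries (vertical axis from 0). The nkx2.2a libraries reach 60.9 and 83.6 FPKM, with grhl3, picked for being high there, as the largest part. In contrast, grhl2a leads in olig2 library 1 and grhl2b in olig2 library 2.

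Most of these genes were listed as several transcripts, and their shares were compared because they do not enter the choice of the genes. The 3 grhl3 transcripts, 2872, 2959 and 2950 bases long, took 33.5%, 31.7% and 34.8% of the grhl3 reads in nkx2.2a library 1 and 37.1%, 28.5% and 34.4% in library 2. The shares were close to equal. Since shared reads may have been divided evenly, no use of a particular grhl3 transcript is read from them. Of the 3 tp63 transcripts, the 3219-base one held between 42.3% and 57.3% of the tp63 reads in the 6 libraries, the largest share in each. It is also the longest, beside 1946 and 1853 bases. Per length it led only in nkx2.2a library 2 and dbx1b library 1. In nkx2.2a library 1 it was the lowest, at 18.5 FPKM against 22.0 and 20.7 FPKM. For grhl2a the longer of 2 transcripts held 77.1% to 99.0%. For grhl2b the shortest of 3 transcripts, 1571 bases long, held 7.56% and 32.5% of the grhl2b reads in the nkx2.2a sort, 13.6% and 1.59% in the olig2 sort and 25% and 8.33% in the dbx1b sort, so its share varied within each sort. The single epcam transcript is 1511 bases long. Neither it nor the grhl2a transcripts were found in the RefSeq annotation used for comparison. There grhl3 overlaps a long non-coding RNA gene, LOC141378575. The effect of either on the counts was not tested. Transcripts of a gene share most of their sequence, so these shares depend on how the authors' mapping divided shared reads, and likewise reads that match both grhl2a and grhl2b cannot be assigned with certainty.

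The comparison of olig2 with dbx1b cells was not used to choose the genes, so it was tested. By size, grhl2a and grhl1 had the largest estimates and grhl3 the smallest, while epcam had the lowest p in both edgeR and DESeq2. The log2 fold change of epcam was 1.95 ± 0.48 (SE; 95% interval 0.87 to 3.03), from 80.4 ± 16.4 CPM (olig2) and 20.8 ± 7.05 CPM (dbx1b; SD, n = 2 each), with both olig2 libraries above both dbx1b libraries. It did not pass edgeR's quasi-likelihood test over all 19129 symbols (unadjusted p = 0.00265, Benjamini-Hochberg adjusted p = 0.379), but DESeq2 called it at 2.02 (adjusted p = 0.00295). DESeq2 was run on the read counts, in which both mates of a fragment count, and not on halved counts. Leaving out a library moved the epcam value between 1.66 and 2.33, and over its alternatives the adjusted p ran from 0.00295 to 0.968. The difference of epcam was thus of similar size in every fit, and its call depended on the tool.

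For tp63 the log2 fold change was 1.40 ± 0.68 (interval -0.12 to 2.92, edgeR adjusted p = 0.545), again with both olig2 libraries above both dbx1b libraries. It was 0.68 without dbx1b library 1 and 2.84 without dbx1b library 2, so the value hung on the 2 unequal dbx1b libraries. It was 0.91 without olig2 library 2. For grhl3 the difference was -0.16 ± 0.67, and its interval of -1.67 to 1.36 leaves room for a change in either direction (edgeR adjusted p = 0.965). The sign of grhl3 turned without olig2 library 1 (0.27) or dbx1b library 2 (0.49).

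The remaining grhl genes had wide intervals. The log2 fold change was 2.27 ± 1.60 for grhl1 (interval -1.34 to 5.87, edgeR adjusted p = 0.682), 2.46 ± 1.28 for grhl2a (interval -0.42 to 5.33, edgeR adjusted p = 0.568) and 0.63 ± 1.06 for grhl2b (interval -1.76 to 3.02, edgeR adjusted p = 0.895). Without olig2 library 1 the values of grhl1 and grhl2a turned to -1.50 and -0.75. That of grhl2b turned to -0.85 without olig2 library 2 and to -0.04 without dbx1b library 1, and it was 1.33 without olig2 library 1 and 1.88 without dbx1b library 2. No direction is drawn for these 3 genes. Of the 6 genes, 5 had a positive value, these 3 included, with a median of 1.68 where all tested symbols had a median of -0.05. This count and median rest in part on olig2 library 1, without which grhl1 and grhl2a turned, so no joint direction is drawn. In 2 of the 6, tp63 and epcam, both olig2 libraries were above both dbx1b libraries, as in 18.3% of all tested symbols. edgeR called 0 of the 6 at adjusted p under 0.05 (0% of all tested symbols) and 1 at unadjusted p under 0.05 (9.53%, of which 3.7% higher and 5.83% lower). DESeq2 called 1 (4.2% of the 16533 symbols to which it gave an adjusted p, of which 1.86% higher and 2.35% lower).

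**Figure D3:**
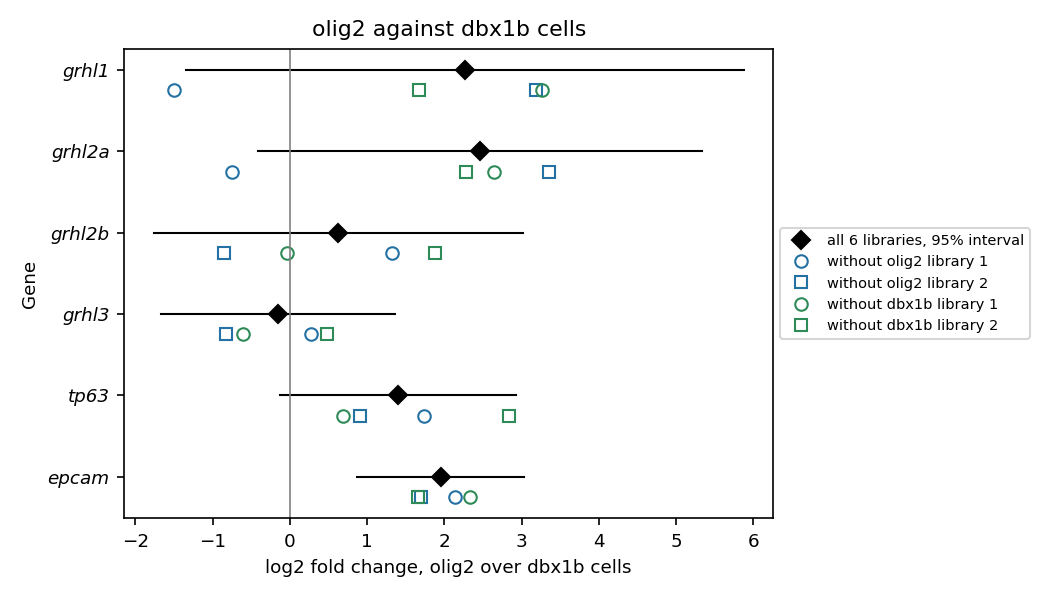
Log2 fold change of each gene in olig2 over dbx1b cells (horizontal axis), with black diamonds and lines for the edgeR estimate from all 6 libraries and its 95% interval. Open circles and squares show the estimate without library 1 or 2 of olig2 (blue) or dbx1b (green). The points of epcam stay between 1.66 and 2.33, whereas grhl1 and grhl2a cross 0 without olig2 library 1.

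Other genes of the epidermal programme were taken from lists that did not include the 6. Over 5 such lists, edgeR called 0 genes in any comparison at adjusted p under 0.05. The background was 0% of all tested symbols in nkx2.2a over olig2 cells and in olig2 over dbx1b cells, and 0.00523% in nkx2.2a over dbx1b cells. Values below are therefore levels, with counts at an unadjusted edgeR p under 0.05 as a description. By that rule 8.75% of all symbols passed for nkx2.2a against olig2 cells (6.12% higher and 2.62% lower) and 6.27% for nkx2.2a against dbx1b cells (3.61% higher and 2.67% lower). DESeq2 at adjusted p under 0.05 gave 3.43% (2.55% higher and 0.883% lower) of 16533 symbols with an adjusted p and 2.4% (1.51% higher and 0.887% lower) of 15791. For olig2 against dbx1b cells the unadjusted edgeR shares were 3.7% higher and 5.83% lower. Those of DESeq2 were 1.86% higher and 2.35% lower.

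Epithelial junction, protease and splicing genes, many of which are known Grhl targets in vertebrates, were the list with the widest gap among the 5, taken as the ratio of the lowest nkx2.2a sum to the highest other sum. Its 24 genes found summed to 949 and 1286 CPM in nkx2.2a cells, to 527 and 417 CPM among olig2 cells and to 469 and 521 CPM in dbx1b cells. The nkx2.2a libraries were above all others, and the olig2 and dbx1b ranges overlapped. The E-cadherin gene cdh1 stood at 231 and 288 CPM, at 71.2 and 28.0 CPM and at 118 and 127 CPM in the same order. The claudin gene cldn7b stood at 244 and 202 CPM, at 85.8 and 61.4 CPM and at 111 and 83.2 CPM, so both had the nkx2.2a libraries on top. No sum of this list was taken without cdh1 and cldn7b, so the rank of its gap may rest on them. The vesicle trafficking gene rab25b, at 116 and 427, 194 and 179, and 84.3 and 133 CPM, overlapped between the sorts. In nkx2.2a over olig2 cells 17 of 20 tested genes were positive (median 1.45, all symbols 0.05), with 6 at unadjusted edgeR p under 0.05, all higher, and 4 called by DESeq2. In nkx2.2a over dbx1b cells 17 of 20 were positive (median 1.26, all symbols -0.00347), with 5 higher at unadjusted p and 2 called by DESeq2. In olig2 over dbx1b cells 9 of 20 were positive (median -0.22), with 2 lower at unadjusted p, cldnb and cdh1 (-1.31 for cdh1, edgeR adjusted p = 0.497), and 1 called lower by DESeq2, the claudin gene cldnb. On this comparison epcam (1.95) and cdh1 (-1.31), which both encode epithelial adhesion molecules, had opposite signs.

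Transcription factors of the early epidermis differed less. Their 15 genes found summed to 616 and 778 CPM in nkx2.2a cells, to 445 and 635 CPM among olig2 cells and to 292 and 450 CPM in dbx1b cells. The nkx2.2a and olig2 ranges overlapped, as those of tp63 did. The AP-2 gene tfap2c, which acts in early ectoderm, stood at 315 and 478, 272 and 342, and 216 and 270 CPM in the nkx2.2a, olig2 and dbx1b libraries. Its relative tfap2a stood at 60.0 and 42.0, 59.9 and 82.2, and 14.8 and 16.5 CPM, which puts dbx1b cells below both other sorts. In olig2 over dbx1b cells the log2 fold change of tfap2a was 2.18 (unadjusted p = 0.00537, edgeR adjusted p = 0.432). DESeq2 called tfap2a alone of 13 tested genes in that comparison and 0 of them in the other comparisons. By unadjusted edgeR p, 2 of 13 were higher in nkx2.2a over olig2 cells and 2 in nkx2.2a over dbx1b cells, with list medians of 0.64 and 0.91. The 2 over olig2 cells were dlx4b and klf4. In the nkx2.2a, olig2 and dbx1b libraries dlx4b stood at 1.58 and 6.35, 0 and 0, and 0 and 2.82 CPM. The values of klf4 were 3.32 and 0.605, 0 and 0, and 1.08 and 12.1 CPM, so both rest on olig2 libraries without a read. In olig2 over dbx1b cells 1 was higher by unadjusted edgeR p, tfap2a, and 1 lower, klf4 (3.7% and 5.83% of all tested symbols). The list median there was 0.34. The GATA factor gene gata3, at 70.1 and 57.2, 41.4 and 40.1, and 14.0 and 53.8 CPM, had the nkx2.2a libraries on top and the olig2 values within the dbx1b range.

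Keratin and basal layer genes were detected in all sorts, with their highest sums in nkx2.2a cells. Of 11 tested keratin genes 7 were positive in nkx2.2a over olig2 cells and 9 in nkx2.2a over dbx1b cells, with a median of 0.53 in each (all symbols 0.05 and -0.00347). Both nkx2.2a libraries exceeded all others for 3 of 11 tested keratin genes and 5 of 18 tested basal layer genes (8.16% of all tested symbols). The 14 skin keratin genes found summed to 2108 and 2313 CPM in nkx2.2a cells, to 1645 and 1403 CPM among olig2 cells and to 1383 and 752 CPM in dbx1b cells. The simple-epithelium keratin genes krt8 (420 and 600 CPM in nkx2.2a cells, 87.7 to 138 CPM elsewhere) and krt18 (390 and 582 CPM, and 93.9 to 197 CPM elsewhere) had a gap between nkx2.2a cells and the others. Without krt8 and krt18 the sums were 1299 and 1131 CPM in nkx2.2a cells and 1383 and 1179 CPM in olig2 cells, so that nkx2.2a cells were no longer above olig2 cells, though still above dbx1b cells at 1066 and 567 CPM. The keratin gene krt4, with 550 and 449, 674 and 459, and 408 and 228 CPM, overlapped between nkx2.2a and olig2 cells. At unadjusted edgeR p 3 of 11 tested keratin genes were higher in nkx2.2a over olig2 cells and 2 in nkx2.2a over dbx1b cells, and DESeq2 called as many. In olig2 over dbx1b cells 6 of 11 were positive (median 0.36). There 1 was lower by both rules, krt94 (5.83% of all tested symbols by edgeR and 2.35% by DESeq2). Its level was 30.0 and 13.0, 0 and 0, and 0.720 and 5.78 CPM in the nkx2.2a, olig2 and dbx1b libraries. The keratin gene krtt1c19e, a marker of basal epidermal cells in zebrafish, was named here after its values were seen. It stood at 0.237 CPM or less in every library and had no read in 4, both nkx2.2a libraries included. It therefore does not tell the sorts apart. In the 2 nkx2.2a libraries a count of 0 allows up to 0.474 and 0.907 CPM.

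The 19 genes of basal epidermis and its basement membrane that were found summed to 1542 and 1643 CPM in nkx2.2a cells, to 1031 and 1009 CPM among olig2 cells and to 778 and 922 CPM in dbx1b cells. The step between olig2 and dbx1b cells rested on 1 gene, col7a1l: without it the sums were 572 and 636 CPM in olig2 cells and 692 and 857 CPM in dbx1b cells, with nkx2.2a cells still on top at 1296 and 1378 CPM. In nkx2.2a over olig2 cells 15 of 18 tested genes were positive (median 0.99), and in nkx2.2a over dbx1b cells 14 of 18 (median 0.74). In olig2 over dbx1b cells 8 of 18 tested genes were positive, with a median of -0.14. The collagen VII-like gene col7a1l was highest in olig2 cells, with 246 and 266, 459 and 373, and 86.4 and 65.0 CPM, and its log2 fold change in olig2 over dbx1b cells was 2.46 (unadjusted p = 8.14e-05, edgeR adjusted p = 0.173). The Fraser complex gene fras1, whose protein anchors the epidermal basement membrane, stood at 282 and 368, 56.6 and 42.4, and 87.2 and 224 CPM. The laminin gene lama5 stood at 316 and 283, 130 and 122, and 130 and 144 CPM. By unadjusted edgeR p 3 of 18 were higher in nkx2.2a over olig2 cells and 4 of 18 higher in nkx2.2a over dbx1b cells. DESeq2 called 3 and 1 higher in these comparisons. In olig2 over dbx1b cells 1 was higher and 3 lower by unadjusted edgeR p (3.7% and 5.83% of all tested symbols). There DESeq2 called 1 higher and 1 lower. Desmosome and envelope genes, whose 11 genes found summed to 553 and 644, 349 and 491, and 498 and 504 CPM, had the nkx2.2a libraries only slightly above the rest. Their desmoplakin gene dspa stood at 180 and 235, 87.0 and 145, and 110 and 150 CPM, the plakoglobin gene jupa at 132 and 189, 87.3 and 113, and 128 and 153 CPM, and the periplakin gene ppl at 64.9 and 59.9, 63.0 and 124, and 61.4 and 40.7 CPM. The ranges of jupa and ppl overlapped between sorts. Of 11 tested desmosome and envelope genes 9 were positive in nkx2.2a over olig2 cells (median 0.63) and 8 in nkx2.2a over dbx1b cells (median 0.29). In olig2 over dbx1b cells 3 were positive (median -0.40). By unadjusted edgeR p and by DESeq2 only dsg2.1 passed, higher in nkx2.2a over olig2 cells and lower in olig2 over dbx1b cells. It stood at 31.6 and 2.12, 0.304 and 0.711, and 19.8 and 7.33 CPM, so the olig2 values were near 0 and the nkx2.2a libraries were far apart.

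**Figure D4:**
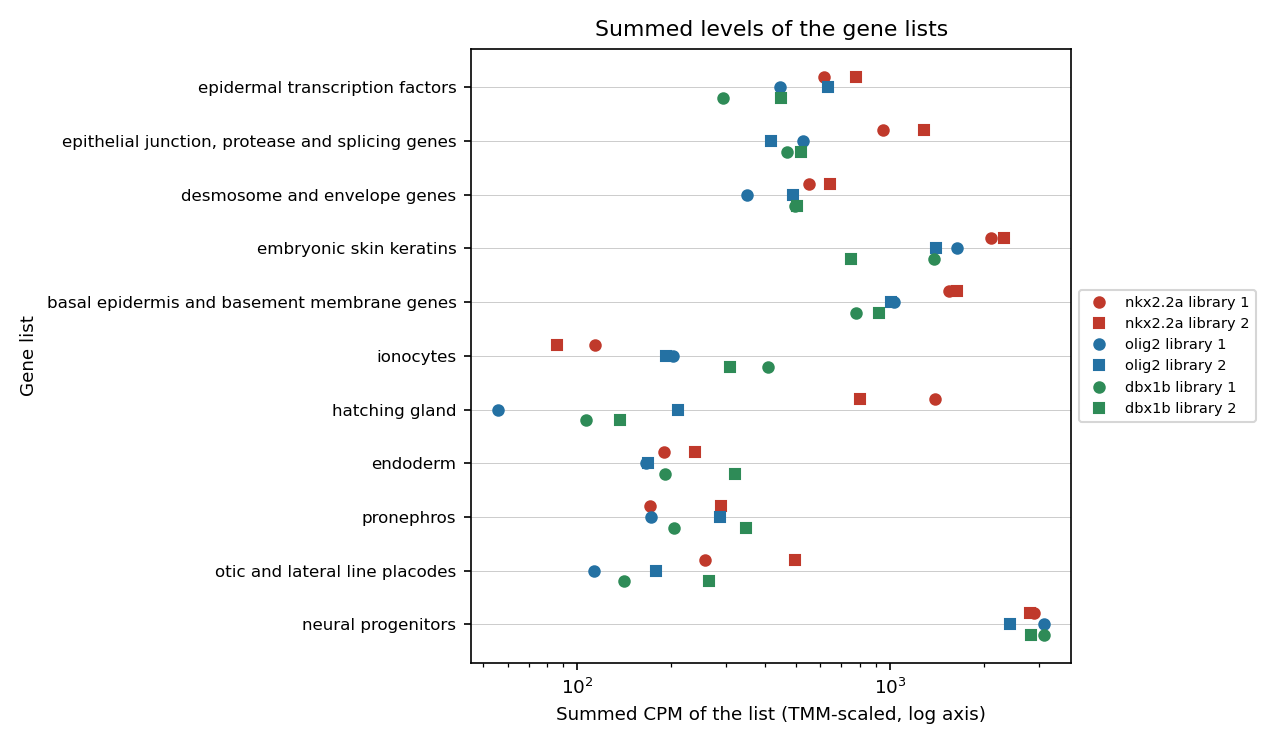
Summed TMM-scaled CPM of each gene list (log horizontal axis) in each library, with circles for library 1 and squares for library 2 of nkx2.2a (red), olig2 (blue) and dbx1b (green) cells. The hatching gland list has the widest gap, 1394 and 806 CPM in nkx2.2a cells against 56.0 to 210 CPM elsewhere. The neural progenitor list stays between 2418 and 3115 CPM.

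Several other tissues express epcam or grhl genes, so their markers were set beside the 6. The sum of the 10 hatching gland genes, like grhl3 and epcam, was highest in nkx2.2a cells. It stood at 1394 and 806 CPM there, at 56.0 and 210 CPM among olig2 cells and at 107 and 137 CPM among dbx1b cells. Both nkx2.2a libraries exceeded all others for 6 of 8 tested genes (8.16% of all tested symbols). Of the other tested genes, klf17 was highest in olig2 library 2, at 50.7 CPM, and tmprss2 had no read in nkx2.2a cells. The hatching enzyme gene he1a stood at 359 and 242, 1.22 and 24.9, and 0.180 and 2.96 CPM. The cathepsin L genes ctslb (352 and 160 CPM in nkx2.2a cells, 33.4 CPM or less elsewhere) and ctsl1b (327 and 141 CPM, and 35.1 CPM or less elsewhere) had the same shape. In nkx2.2a over olig2 cells 5 of 8 tested hatching gland genes were higher at unadjusted edgeR p (list median 2.75). DESeq2 called 1 of them, cd63, and not he1a, ctslb or ctsl1b. In nkx2.2a over dbx1b cells 4 were higher and 1 lower, and 2 higher by DESeq2 (list median 4.01). Placode genes summed to 256 and 498, 113 and 179, and 141 and 263 CPM, and the homeobox gene six4b was high in nkx2.2a cells, at 37.0 and 92.2, 3.35 and 9.24, and 2.88 and 10.1 CPM. The placode genes pax2a, at 68.8 and 198, 72.7 and 71.1, and 92.7 and 156 CPM, and eya1, at 63.6 and 74.7, 9.13 and 66.1, and 8.64 and 34.8 CPM, overlapped between nkx2.2a and olig2 cells. In nkx2.2a over olig2 cells all 10 tested placode genes were positive (median 2.22), and 3 were called by DESeq2. All 10 were also positive in nkx2.2a over dbx1b cells (median 1.39), where DESeq2 called 1. Both nkx2.2a libraries exceeded all others for 4 of the 10 (8.16% of all tested symbols). In both comparisons the hatching gland and placode medians were above those of each of the 5 epidermal lists. The part of these cell types in the levels of grhl3 and epcam was not tested.

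Markers of ionocytes, endoderm and pronephros were mixed. The ionocyte list summed to 114 and 86.5 CPM in nkx2.2a cells and to 192 to 407 CPM elsewhere. Most of it outside nkx2.2a cells was the Notch ligand gene dlc, which is not limited to ionocytes, at 59.4 and 30.2, 169 and 70.6, and 363 and 283 CPM, and the proton pump gene atp6v1aa, at 12.8 and 1.51, 15.5 and 98.8, and 24.3 and 8.03 CPM. The forkhead gene foxi1, known from otic placode and ionocyte precursors, went the other way. It stood at 9.16 and 25.1 CPM in nkx2.2a cells, had no read in the olig2 libraries and stood at 6.12 and 7.61 CPM in dbx1b cells (nkx2.2a over olig2: edgeR adjusted p = 0.453, DESeq2 adjusted p = 0.000233). In nkx2.2a over dbx1b cells the median of the 10 tested ionocyte genes was 1.03, 5 had both nkx2.2a libraries above both dbx1b libraries (19.1% of all tested symbols), and DESeq2 called 1 lower, dlc. In nkx2.2a over olig2 cells the median was 0.34, with 2 genes above both olig2 libraries (20% of all tested symbols) and 3 below both (15.7%). Of the defining genes foxi3a and foxi3b, named after their values were seen, foxi3a stood at 2.84 and 17.8, 3.04 and 0, and 1.08 and 0.564 CPM, so that its highest value was in nkx2.2a library 2. The level of foxi3b was 3.08 CPM or less in every library.

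Endoderm genes summed to 189 and 238, 166 and 168, and 191 and 319 CPM, and pronephros genes to 171 and 289, 173 and 287, and 204 and 346 CPM. In both lists the nkx2.2a and dbx1b ranges overlapped. Within the endoderm list the forkhead gene foxa2, which the floor plate also expresses, had the nkx2.2a libraries on top, at 50.2 and 86.2, 21.9 and 6.87, and 9.72 and 35.1 CPM, as had foxa1, at 44.4 and 55.3, 20.7 and 9.72, and 21.3 and 40.6 CPM. Its relative foxa3 overlapped, at 57.3 and 16.9, 37.1 and 16.4, and 55.6 and 115 CPM. The homeobox gene hnf1ba, in both lists, was lowest in nkx2.2a cells, at 13.6 and 18.4, 30.4 and 86.8, and 51.1 and 70.8 CPM. The part of these cell types in the levels of the 6 genes was not tested.

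Likeness was taken as Pearson's r of log2 CPM over the 6 libraries, where all genes of a library share its depth and scaling. The genes most like each of the 6 were looked up among 7682 tested symbols with a mean of at least 10 CPM. For grhl3 these were emp2 (r = 0.99), an epithelial membrane protein gene, the TGF-beta ligand gene tgfb3 (0.99) and the Rab11 effector gene rab11fip4a (0.99). The level of emp2 was 56.4 and 81.4, 7.30 and 12.8, and 6.12 and 12.5 CPM, which follows grhl3 in every sort. For epcam the nearest were mpz (r = 0.995), vapb (0.98) and slit1a (0.97), where the guidance ligand gene slit1a stood at 206 and 223, 99.5 and 114, and 59.4 and 57.5 CPM. For tp63 they were chd2 (0.99), nkx2.2b (0.99) and birc2 (0.98). The gene nkx2.2b, a relative of the reporter's gene, stood at 88.0 and 93.8, 26.5 and 80.4, and 0.72 and 9.58 CPM, and like tp63 it was lowest in dbx1b library 1. Over 6 libraries some of 7682 symbols can reach a high r without any relation, and no background for r was computed.

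For grhl1 the nearest were rsrp1, rab40c and phldb1b (r = 0.995, 0.98 and 0.98), for grhl2a mmp15a, ca4a and jak2a (0.99, 0.98 and 0.98), and for grhl2b pi4k2b, klf3 and camsap3 (0.99, 0.98 and 0.98). An r of 0.95 or more was reached by 23 symbols for grhl3, 7 for epcam, 16 for tp63, 5 for grhl1, 22 for grhl2a and 15 for grhl2b. Among the 6 themselves, grhl1 and grhl2a were the most alike (r = 0.93), followed by tp63 and grhl2b (0.81). The duplicates grhl2a and grhl2b had r = -0.08, and grhl3 with epcam had 0.74. These are descriptions over 6 libraries in 3 sorts, without a background for r, and no co-expression is read from them. Both grhl3 and epcam were picked for being high in nkx2.2a cells, so their r and the genes most like them rest on that choice.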

How the data were processed

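RNA from GFP-sorted trunk cells was sequenced, with 2 libraries for each of 3 reporter lines. FastQC 0.11.3, Bowtie 1.1.1 and build GRCz10 appear in the submitters' processing notes without a stated role. The deposited counts are reads per RefSeq transcript (54437 transcripts), not normalised. Every count is even, so both mates of a fragment were counted. Both edgeR and DESeq2 took these read counts, and halved counts were tried with edgeR only. Unmapped reads (66.6% to 80.6%) stayed out of library sizes. The FPKM values deposited by the authors equal read counts scaled by transcript length and total mapped reads, recomputed within 1e-06 for 326622 of 326622 values. A deposited table of group means was not used: 1151 of its rows hold the values of the transcript they name, 0 of these above 0 FPKM. The sources used here do not say how reads shared by transcripts were divided. In 797 cases of equally long transcript pairs of a gene the split had a median chi-square of 0.555, where an even random split gives 0.455.

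Counts were summed per symbol and tested with edgeR 4.0.16 (R 4.3.3): filterByExpr (minimum count 10), TMM scaling, quasi-likelihood fit with 1 mean per sort over all 6 libraries, Benjamini-Hochberg adjustment over 19129 symbols, threshold 0.05. All 6 genes passed the filter. Standard errors derive from the F statistic, and r used log2 CPM with a prior count of 2. The fit was also run, without the filter, on simulated counts with large changes set in genes above the median level. That run does not cover genes of lower level or unusual spread between libraries. Depth limits precision, and intervals and floors (3 fragments) cover counting error only. Tried as alternatives were DESeq2 1.42.0, scaling by RLE or by library size alone, other filters, the replicate number as a block, the 4 libraries compared, counts divided by 2, and each library left out; list sums without their leading genes were added after seeing the data.

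The 6 genes and the gene lists were chosen with earlier results of these data known, so the list values are no independent support. Named list genes are the 3 with the highest mean CPM of each list, since no list member passed over all symbols. The genes krtt1c19e, foxi3a, foxi3b, foxa1, cldnb, klf17, tmprss2, cd63, dlx4b, klf4, krt94 and dsg2.1 were named after their values were seen. A list is counted by its symbols as written, and genes in more than 1 list count in each. Strand was not considered, and no promoter or protein sequence was used here.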

Additional observations from a re-analysis of the deposited data

How the results depend on the processing

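The number of symbols called depended on tool and filter. In nkx2.2a over olig2 cells edgeR called 0, DESeq2 567 and edgeR without a filter 233, and 0 to 6 with a library left out. In nkx2.2a over dbx1b cells edgeR called 1, then 0 without composition scaling, 2 from the 4 libraries compared, 238 without a filter and 379 by DESeq2, and 0 to 65 with a library left out. In olig2 over dbx1b cells it called 0, then 2 with counts divided by 2, 292 without a filter and 695 by DESeq2, and 0 to 7 with a library left out. The cause was not tested.

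In olig2 over dbx1b cells, with a library left out, grhl1 ran from -1.50 to 3.27, grhl2a from -0.75 to 3.35, grhl2b from -0.85 to 1.88, grhl3 from -0.83 to 0.49, tp63 from 0.68 to 2.84 and epcam from 1.66 to 2.33 on the log2 scale. The sign of grhl2b also turned without dbx1b library 1 (-0.04) and that of grhl3 without olig2 library 1 (0.27). A group left with 1 library was assumed to vary like the others. Under the settings that keep all libraries no sign turned, and epcam alone gained a call, with DESeq2 (2.02, adjusted p = 0.00295). Without a filter epcam had adjusted p = 0.0588 at 1.97. The filter of 1 CPM kept as many symbols as the main one.

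Libraries of different sorts share only a replicate number: their deviations from the sort means correlated at -0.0142 to 0.0235. With the replicate number as a block edgeR called 3 symbols in olig2 over dbx1b cells, 0 in nkx2.2a over olig2 cells and 1 in nkx2.2a over dbx1b cells, and the block gave 1.97 for epcam, 1.61 for tp63 and 1.71 for grhl1.

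Leaving genes out of 2 list sums, chosen after seeing the data, turned their direction. The log2 ratio of the basal layer sum in olig2 over dbx1b cells went from 0.26 to -0.36 without col7a1l, and that of the keratin sum in nkx2.2a over olig2 cells from 0.54 to -0.0765 without krt8 and krt18.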
